A study of Canis lupus familiaris with 8 samples.

Results

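The cells described here are circulating CD8 T cells of the dog that carried RNA of both TOX and TCF7 and none of FCER1G, GZMB, GZMK or CCR7. They came from the blood of 4 healthy, routinely vaccinated Beagles, a female of 5 years (dog 1), males of 7 years (dogs 2 and 3) and a male of 9 years (dog 4). From each dog, viable TCRαβ+ T cells were sorted by flow cytometry, cryopreserved and profiled by droplet-based 5' single-cell sequencing, with 1 gene expression and 1 V(D)J library per dog, so that the dog is the replicate (n = 4). The expression libraries held 7428, 8873, 8402 and 8422 barcodes with 26904346, 35661623, 32637367 and 32773374 UMIs in dogs 1 to 4. Age and sex were not tested. A member was a cell with 500 to 20000 UMIs (unique molecular identifiers, counted RNA molecules) and at most 10% mitochondrial UMIs that had at least 1 UMI each of CD8A, TOX and TCF7 and no UMI of CD4, FCER1G, GZMB, GZMK or CCR7. Members were thus chosen by the measured UMIs of these 8 genes. By this rule 226 of 31909 cells were members, out of 6427 CD8A+ CD4- cells.

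TOX is a nuclear factor that T cells switch on after repeated antigen receptor signalling and that is known from exhausted, tolerant and innate-like T cells. TCF7 encodes TCF-1, a factor of naive, memory and self-renewing T cells that is lost in terminal effector cells. Cells with both have been studied as the proliferating reserve of exhausted CD8 responses, in which PDCD1 is usually present too. FCER1G, the common Fc receptor gamma chain, marks innate-like T cells, GZMB and GZMK are granzymes of cytotoxic and memory cells, and CCR7 guides naive and central memory cells to lymph nodes.

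Members made up 42 of 691 CD8A+ CD4- cells in dog 1 (6.08%, exact 95% binomial interval 4.42 to 8.13), 46 of 1427 in dog 2 (3.22%, 2.37 to 4.28), 32 of 2280 in dog 3 (1.40%, 0.962 to 1.98) and 106 of 2029 in dog 4 (5.22%, 4.30 to 6.28). These intervals cover counting error only. The members of dog 3 also stood apart in the expression of some genes and had the lowest clonality. Results that rest on that dog are therefore given with and without it. The mean share was 3.98% ± 2.09 (SD, n = 4), with dog 3 lowest. Of the 6427 CD8A+ CD4- cells, 962 met all negative conditions, 296 of these had TOX RNA and 226 had TCF7 RNA as well. Without any negative condition, 819 CD8A+ CD4- cells had both TOX and TCF7 RNA.

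**Figure D1:**
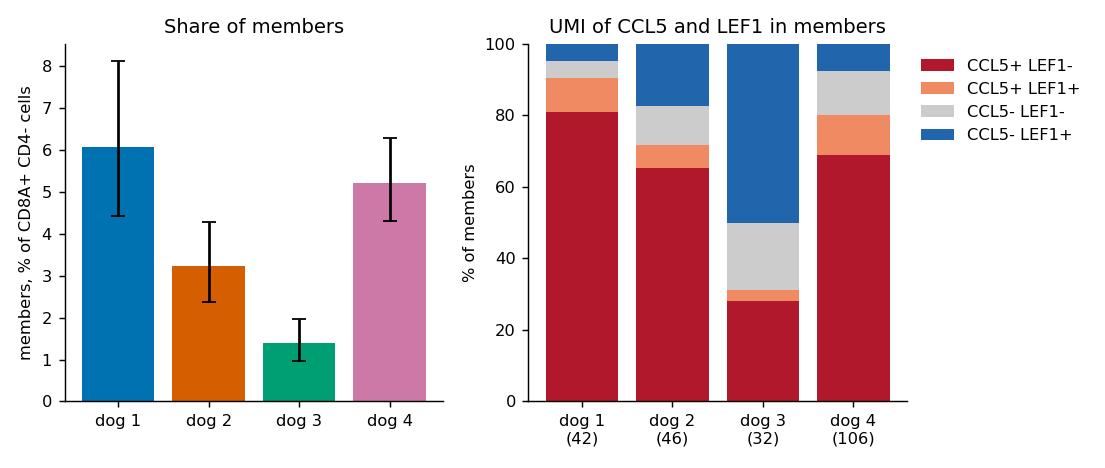
Left, members as a percentage of all CD8A+ CD4- cells in each dog, with exact 95% binomial intervals; the share ran from 1.40% in dog 3 to 6.08% in dog 1. Right, members of each dog (number in brackets) divided by the presence of a UMI of CCL5 and of LEF1; CCL5+ LEF1- cells were the main kind in dogs 1, 2 and 4, and CCL5- LEF1+ cells were 50.0% of the members of dog 3.

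The gate rests on few molecules. Of the 226 members, 128 had a single UMI of TOX, 61 a single UMI of TCF7 and 40 a single UMI of each, whereas 77 had 2 or more of both. Just outside the gate, with every other condition met, lay 55 cells with 1 UMI of GZMB, 46 with 1 of CCR7, 18 with 1 of CD4, 9 with 1 of FCER1G and 4 with 1 of GZMK. Members held more UMIs and genes per cell than the other CD8A+ CD4- cells of the same libraries. The medians were 4975 against 3684 UMIs and 1944.5 against 1513 genes. The gate asks for detected UMIs of both TOX and TCF7, and its part in this difference was not tested. Across the 4 libraries 586 barcode sequences occurred in more than 1 library, and cells were therefore identified by dog and barcode.

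Expression of the genes that define the gate is given without a test. Levels are CPM, the UMIs of a gene summed over the cells of a population in a dog and scaled to a common total of UMIs, which is a scale for comparing populations and not genes. TOX in the members was at 317, 337, 336 and 329 CPM in dogs 1 to 4, and TCF7 at 683, 673, 550 and 664 CPM. Since every member had to hold both RNAs, nothing is read from how alike these levels are. CD8A was at 1539, 1331, 1057 and 1596 CPM in members and at 1336, 1317, 1603 and 1585 CPM in the other CD8A+ CD4- cells, so that the populations overlapped.

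Members were compared with 4 populations of the same dogs in edgeR quasi-likelihood fits on summed UMIs with the dog as block, and a gene was called at a Benjamini-Hochberg adjusted p under 0.05. The first comparator was all other CD8A+ CD4- cells (6201 cells). The second met the same negative conditions but lacked a UMI of TOX or of TCF7 (736 cells), the third was FCER1G+ TOX+ CD8A+ CD4- GZMB- cells (247 cells), and the fourth was CCR7+ CD8A+ CD4- cells without FCER1G, GZMB and GZMK (454 cells). The members are the same cells in all 4 comparisons. Fold changes are on the log2 scale of the fit, ± SE.

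Compared with all other CD8A+ CD4- cells, members expressed more IFNG, IL2, FCRL5, GCSAM, AHR, CD244, CCR9 and ITGAE and less PRF1, KLRG1, EOMES and TBX21. In all, 417 of 7953 genes were called (5.24%), 134 higher (1.68%) and 283 lower (3.56%) in members, and 113 and 261 of these had the same direction in every dog. The other CD8A+ CD4- cells included the GZMB+, GZMK+, FCER1G+ and CCR7+ cells that the gate removed, so differences in genes that accompany those 4 genes came with the choice of cells. The median log2 fold change over all genes tested was -0.01.

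IFNG, the effector cytokine interferon gamma, was at 86.0, 64.9, 14.3 and 60.1 CPM in members of dogs 1 to 4 and at 18.0, 6.47, 6.70 and 14.0 CPM in the other cells. It was higher in the members of every dog, but dog 3 lay within the range of the other cells. The log2 fold change was 2.26 ± 0.29 (edgeR, adjusted p = 8.02e-06). IL2, a growth factor of T cells, was called as well at 28.7 ± 8.38 against 8.51 ± 2.28 CPM (mean ± SD, n = 4; log2 fold change 1.65 ± 0.34, edgeR adjusted p = 0.00245), as was LTB, encoding lymphotoxin beta, with 0.34 ± 0.09, a call lost in 5 of 12 alternative analyses. Of the cytokine list, 3 of 6 genes tested were higher and none lower (median log2 fold change 0.32), and TNF, TNFSF10 and LTA were not called.

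Among inhibitory receptors, 2 of 6 genes tested were higher, 1 was lower and 3 were not called (median 0.54). The lower gene, PDCD1, had 3 UMIs in members and could be tested only through its level in the other cells, which include the GZMB+ cells that the gate removed. CD244, a SLAM family receptor of NK cells and CD8 T cells, was at 136, 138, 42.9 and 154 CPM in members and at 46.8, 41.4, 43.0 and 65.3 CPM in the other cells. It was more than 2 times higher in members of dogs 1, 2 and 4 and equal in dog 3, which gave a log2 fold change of 1.24 ± 0.18 (edgeR, adjusted p = 4.45e-05; 1.37 without dog 3). CD160, a receptor of cytotoxic and intestinal intraepithelial lymphocytes, was higher by 0.62 ± 0.15 with 233 ± 110 against 138 ± 25.6 CPM (edgeR, adjusted p = 0.0117). That call was lost in 5 of 12 alternative analyses.

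PDCD1, which encodes PD-1, was nearly absent from members, with 3 UMIs in 226 cells. The other CD8A+ CD4- cells held it at 10.2 times the members' pooled level (counting interval 3.47 to 49.5). PDCD1 was at 0 in members of dogs 1 and 2 and below the other cells in all 4 dogs. Its mean was 2.67 ± 3.42 CPM in members, 5.41 ± 5.41 in cells lacking TOX or TCF7, 6.44 ± 3.55 in FCER1G+ TOX+ cells and 0.705 ± 0.815 in CCR7+ cells, against 43.1 ± 17.9 in the GZMB+ cells that the gate removed. TIGIT, CTLA4 and HAVCR2 were not called, at 1.08, -0.88 and 0.46.

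None of 8 exhaustion-linked factors tested was higher and 4 were lower (median -0.87), and EOMES, which is 1 of the 4, could be tested only through its level in the other cells, which include the GZMB+ cells that the gate removed. The T-box factor EOMES was represented by 1 UMI in all members against 1442 in the other cells, a ratio of 68.7 with a counting interval of 12.3 to 2717. TBX21, encoding T-bet, was at 36.2, 36.5, 28.6 and 31.8 CPM in members and at 102, 115, 182 and 202 CPM in the other cells (log2 fold change -2.29 ± 0.21, edgeR adjusted p = 3.74e-08). The populations did not overlap. The orphan nuclear receptors NR4A1 and NR4A2, induced by antigen receptor signals, were lower, at -1.90 ± 0.24 and -1.35 ± 0.23. IRF4, PRDM1, NFATC1 and NFATC2 were not called.

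Of 11 effector genes tested 9 were lower (median -2.93), namely GZMA, CX3CR1, ADGRG1, S1PR5, FASLG, PRF1, KLRG1, CCL4 and ZEB2, and HOPX was not called. The comparator holds the GZMB+ and GZMK+ cells that the gate removed, and GZMA, CX3CR1 and S1PR5, with 0 to 2 UMIs in members, could be tested only through their level there, so this count is a description of the gate. GZMA, a granzyme that the gate did not use, had no UMI in any member and 6143 UMIs in the other cells. Against a floor of 3 counts over all members, GZMA was at least 97.6-fold lower in members and CX3CR1, the fractalkine receptor of effector cells, at least 16.7-fold lower. The pore-forming protein gene PRF1 was at 18.1, 28.4, 14.3 and 26.5 CPM in members against 100, 133, 176 and 230 CPM, a log2 fold change of -2.93 ± 0.22 (edgeR, adjusted p = 9.83e-10). Values did not overlap between the populations.

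The exception among effector genes was the chemokine CCL5. It was at 8874, 4199, 957 and 3499 CPM in members and at 4473, 2520, 1097 and 2096 CPM in the other cells of dogs 1 to 4. Members were thus higher in dogs 1, 2 and 4 and slightly lower in dog 3 (log2 fold change 0.56 ± 0.11, edgeR adjusted p = 0.00138; 0.75 without dog 3). The call was lost in 3 of 12 alternative analyses.

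The NK receptor list split in a similar manner. CD7, an immunoglobulin family receptor of T and NK cells, was higher (0.95 ± 0.11), whereas NCR1, KLRB1, IL12RB2, KLRD1, IL2RB, SLAMF7, IL18R1 and NCR3 were lower and 5 of 14 genes tested were not called (median -1.19). NCR1, with no UMI in members, and KLRB1, with 8, could be tested only through their levels in the other cells. KLRB1, encoding CD161, was at 0, 4.06, 28.6 and 5.30 CPM in members and between 99.0 and 418 CPM in the other cells. NCR1, encoding NKp46, had no UMI in members and was at least 6.61-fold lower. The lowest level of the other cells was above the highest of the members for each of these 2 genes.

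Homing receptors and adhesion molecules moved in both directions, with 4 of 14 genes higher, 6 lower and 4 not called (median -0.44). The higher genes were CCR9, CCR6, ITGAE and ITGB7. CCR9, a receptor for the small intestinal chemokine CCL25, was at 104, 183, 64.3 and 145 CPM in members and at 23.0, 47.7, 41.8 and 45.0 CPM in the other cells (1.64 ± 0.17, edgeR adjusted p = 3.97e-07). ITGAE, encoding the CD103 chain that binds E-cadherin, was at 235, 191, 136 and 182 against 112, 92.1, 74.0 and 90.3 CPM (0.95 ± 0.13, edgeR adjusted p = 2.86e-05). In neither gene did the populations overlap. ITGB7, the partner chain of CD103, was higher by 0.62 ± 0.11 and CCR6 by 1.66 ± 0.25. CXCR6, CXCR4, SELPLG and the integrin genes ITGB1, ITGB2 and ITGAL were lower.

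CXCR3, a receptor for interferon-induced chemokines that was named as a marker of these cells, was at 36.2, 81.1, 14.3 and 76.0 CPM in members and at 21.5, 42.6, 34.9 and 36.5 CPM in the other cells. It was higher in 3 of 4 dogs and did not pass the test (0.73 ± 0.23, edgeR adjusted p = 0.0612). Without dog 3, the dog in which it was lower, the value was 0.92, given without a test.

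Of the naive and stem-like genes, 1 of 10 tested was higher, 3 were lower and 6 were not called (median -0.58). The receptor for interleukin 7, IL7R, was higher (0.60 ± 0.12, edgeR adjusted p = 0.00279; lost in 4 of 12 alternatives), while the costimulatory receptors CD27 and CD28 were among the lower genes. CD27 was at 9.05, 44.6, 100.01 and 14.1 CPM in members and at 143, 186, 183 and 179 CPM in the other cells (-2.53 ± 0.28, edgeR adjusted p = 8.29e-07). The populations did not overlap, and dog 3 was the highest of the members. LEF1, the partner of TCF-1 in naive cells, was at 58.8, 118, 414 and 58.3 CPM in members and at 216, 155, 122 and 80.2 CPM in the other cells, with no call over 4 dogs (-0.12 ± 0.30). The value was -0.88 without dog 3, a dog singled out by levels such as this one, so no test is given for it. Of the receptor complex genes, CD5 and CD6, scavenger-type receptors that tune antigen receptor signals, were higher (0.71 ± 0.10 and 0.87 ± 0.10), none was lower, and 6 of 8 were not called (median 0.12).

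By size of the fold change, the 10 largest increases with the same direction in 4 dogs were in NAV3, IFNG, NUGGC, FCRL5, PLS1, AHR, USP45, UPB1, PTPN13 and NR1D1. FCRL5, an Fc receptor-like protein, was higher by 1.95 ± 0.26 and GCSAM, a germinal centre adaptor, by 1.66 ± 0.30. These genes were put on a list of their own with earlier results of these samples known, so their direction is not independent evidence. AHR, the aryl hydrocarbon receptor that senses dietary and microbial ligands, was at 67.9, 40.6, 42.9 and 51.2 CPM in members and at 11.5, 18.9, 9.48 and 14.3 CPM in the other cells (1.79 ± 0.28, edgeR adjusted p = 0.00011). All 4 dogs were above all values of the other cells. The 10 largest fitted decreases, given here in no order, were in GZMA, PI3, CX3CR1, PLEK, RAB31, EOMES, KLRB1, ITGAM, FGR and ADGRG1. GZMA, PI3, CX3CR1, PLEK and RAB31 had no UMI in members and EOMES and FGR had 1, so these 7, like KLRB1, passed the filter on low counts only through the other cells and their folds cannot be ranked. PI3, PLEK and RAB31 were at least 29.0, 9.83 and 8.36-fold lower.

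**Figure D2:**
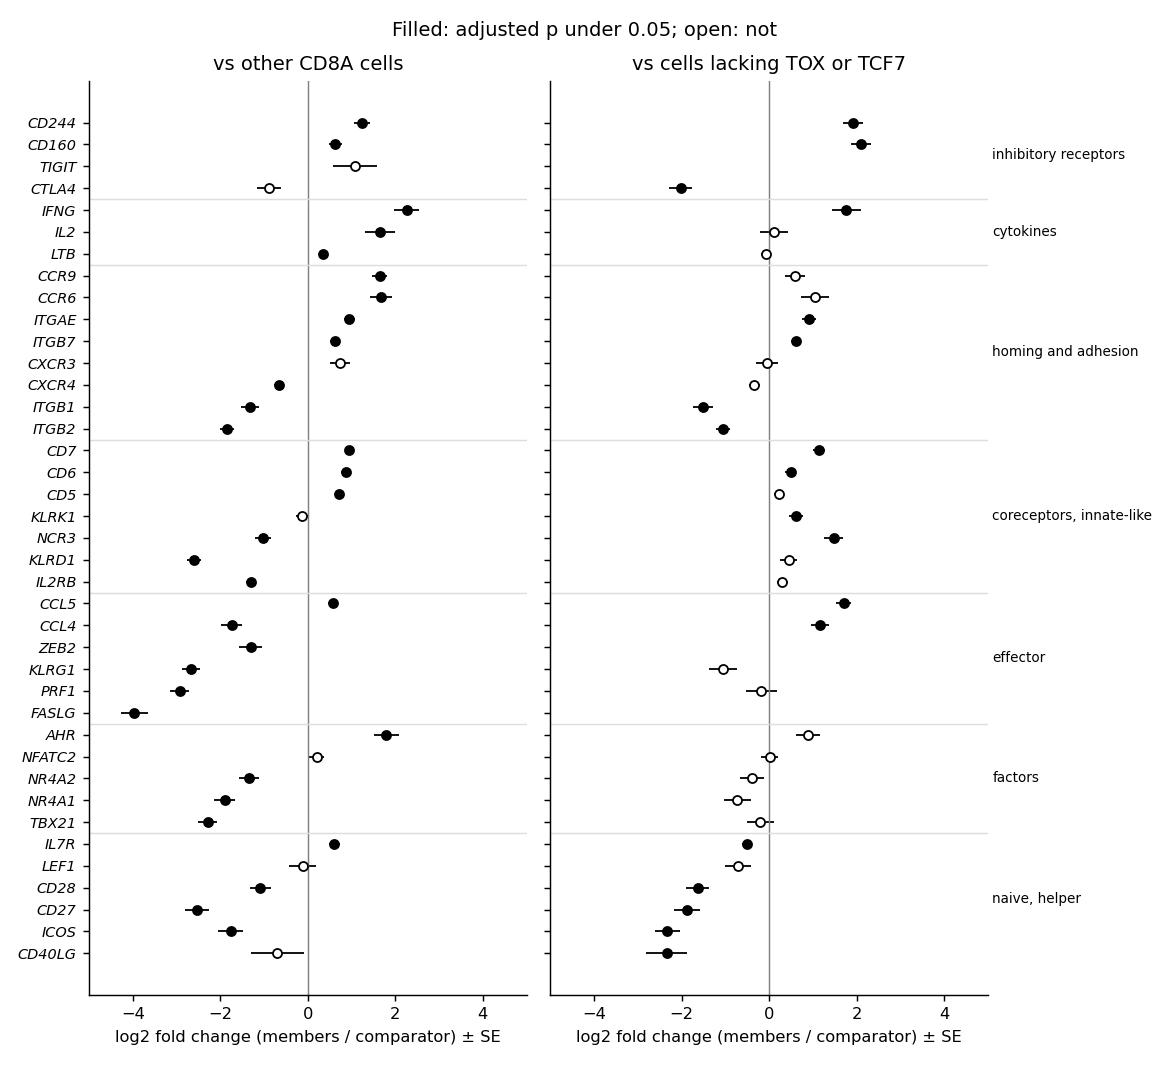
Log2 fold change of the members, with SE from edgeR, against all other CD8A+ CD4- cells (left) and against cells that met the same negative conditions but lacked TOX or TCF7 (right). Filled points passed an adjusted p of 0.05, open points did not and genes without a point were not tested; CD244, CD160, IFNG, CD7, ITGAE and CCL5 were higher in both, while NCR3, CCL4 and IL7R had opposite signs.

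The second comparison held the negative conditions constant and asked what accompanied joint detection of TOX and TCF7. Members had more CD244, CD160, IFNG, CCL5, NCR3 and CD7 RNA and less ICOS, CD27 and CD28 RNA. Of 5652 genes tested 137 were called (2.42%), 52 higher (0.92%) and 85 lower (1.5%), and the median log2 fold change over all genes was near 0 (-0.00123). The comparator cells were shallower, with a median of 3922 UMIs. CD8A, a gene of the gate given without a test, was at 927, 738, 752 and 1036 CPM in them. Each of these values was below all members. The paper describes T cells in which CD4 RNA went undetected, and the part of such cells in this comparator was not tested.

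CD160 was at 267, 373, 136 and 157 CPM in members and at 47.5, 59.4, 12.7 and 76.9 CPM in cells lacking TOX or TCF7 (2.10 ± 0.23, edgeR adjusted p = 1.95e-07). CD244 was at 38.5, 17.5, 8.82 and 53.7 CPM in the comparator, below the members of the same dog in all 4 dogs (1.91 ± 0.23, edgeR adjusted p = 1.16e-06). The populations did not overlap for CD160, and for CD244 only the members of dog 3 reached into the comparator range. CTLA4, with 24 UMIs in members, was called lower but could be tested only through its level in the comparator. It completed the 3 inhibitory receptors tested (median 1.91).

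CCL5 was higher by 1.70 ± 0.17 and CCL4 by 1.16 ± 0.21, both inflammatory chemokines, and PRF1, KLRG1 and HOPX were not called (median over 5 effector genes 0.13). Of 11 NK receptor genes 3 were higher, 1 was lower and 7 were not called (median 0.32). NCR3, encoding NKp30, was at 172, 101, 28.6 and 122 CPM in members and at 45.2, 24.3, 14.7 and 55.2 CPM in the comparator (1.47 ± 0.22, edgeR adjusted p = 2.85e-05), whereas it was lower in members than in all other CD8A+ CD4- cells (-1.03 ± 0.18). CCL4 likewise changed sign between the comparators, from -1.75 ± 0.23 to 1.16 ± 0.21. CD7 was higher by 1.13 ± 0.13 and KLRK1, encoding NKG2D, by 0.61 ± 0.17 (lost in 6 of 11 alternatives), and IL12RB2 was lower.

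Of 5 helper and regulatory genes tested 3 were called lower, none was higher and the others were not called (median -1.39). CD40LG, the CD40 ligand of helper cells, was at 0, 0, 57.1 and 5.30 CPM in members and at 29.4, 56.7, 60.7 and 52.3 CPM in the comparator. It is 1 of the 3 but could be tested only through its level in the comparator. That call was lost in 4 of 11 alternatives. Dog 3 alone was near the comparator. ICOS and LGALS3 were lower, at -2.33 ± 0.29 and -1.39 ± 0.21. Of 10 naive and stem-like genes 4 were lower, ID3, CD27, CD28 and IL7R, and none was higher (median -0.84). LEF1 was not called over 4 dogs (-0.72 ± 0.29; -1.54 without dog 3, given without a test).

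None of 6 exhaustion-linked factors and none of 8 activation and MHC class II genes was called. ITGAE and ITGB7 were higher by 0.92 ± 0.16 and 0.61 ± 0.11, ITGB1, ITGB2 and SELPLG were lower, and CCR9, CCR6 and CXCR3 were among 6 of 11 homing genes not called (median -0.05). The 10 largest increases were in UPB1, GCSAM, CD160, CD244, IFNG, DOCK5, CCL5, PLCG2, NCR3 and PTPN22. The 10 largest fitted decreases, given in no order, were in CMA1, CKAP4, CD40LG, ICOS, ID3, SH2D1A, CD52, CTLA4, BAIAP3 and SNTB1. CMA1, CD40LG and CTLA4 had few UMIs in members and could be tested only through their levels in the comparator, so their folds cannot be ranked. CMA1, a gene of the granzyme and chymase cluster, was at 4.53, 16.2, 35.7 and 10.6 CPM in members and at 33.9, 138, 180 and 97.2 CPM in the comparator. No test is given for it.

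The comparator was also divided by the gene it lacked. These levels are a description without a test, and the TOX only cells numbered 20, 9, 13 and 28 in dogs 1 to 4. CD244 was at 139, 66.5, 0 and 104 CPM in TOX only cells, at 13.6, 12.7, 7.21 and 50.2 CPM in TCF7 only cells and at 21.1, 21.0, 11.7 and 28.6 CPM in cells with neither. IFNG had means of 61.4 ± 43.4, 8.88 ± 9.21 and 9.70 ± 8.87 CPM in the same order, against 56.3 ± 30.2 CPM in members. In dogs 1, 2 and 4 TOX only cells were above TCF7 only cells and cells with neither in CD244 and IFNG, and in dog 3 they were at 0 for both. CD160 was different, with 48.7 ± 34.4, 59.9 ± 33.1 and 27.4 ± 13.5 CPM in the 3 kinds of cells, all below the 233 ± 110 CPM of members.

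**Figure D3:**
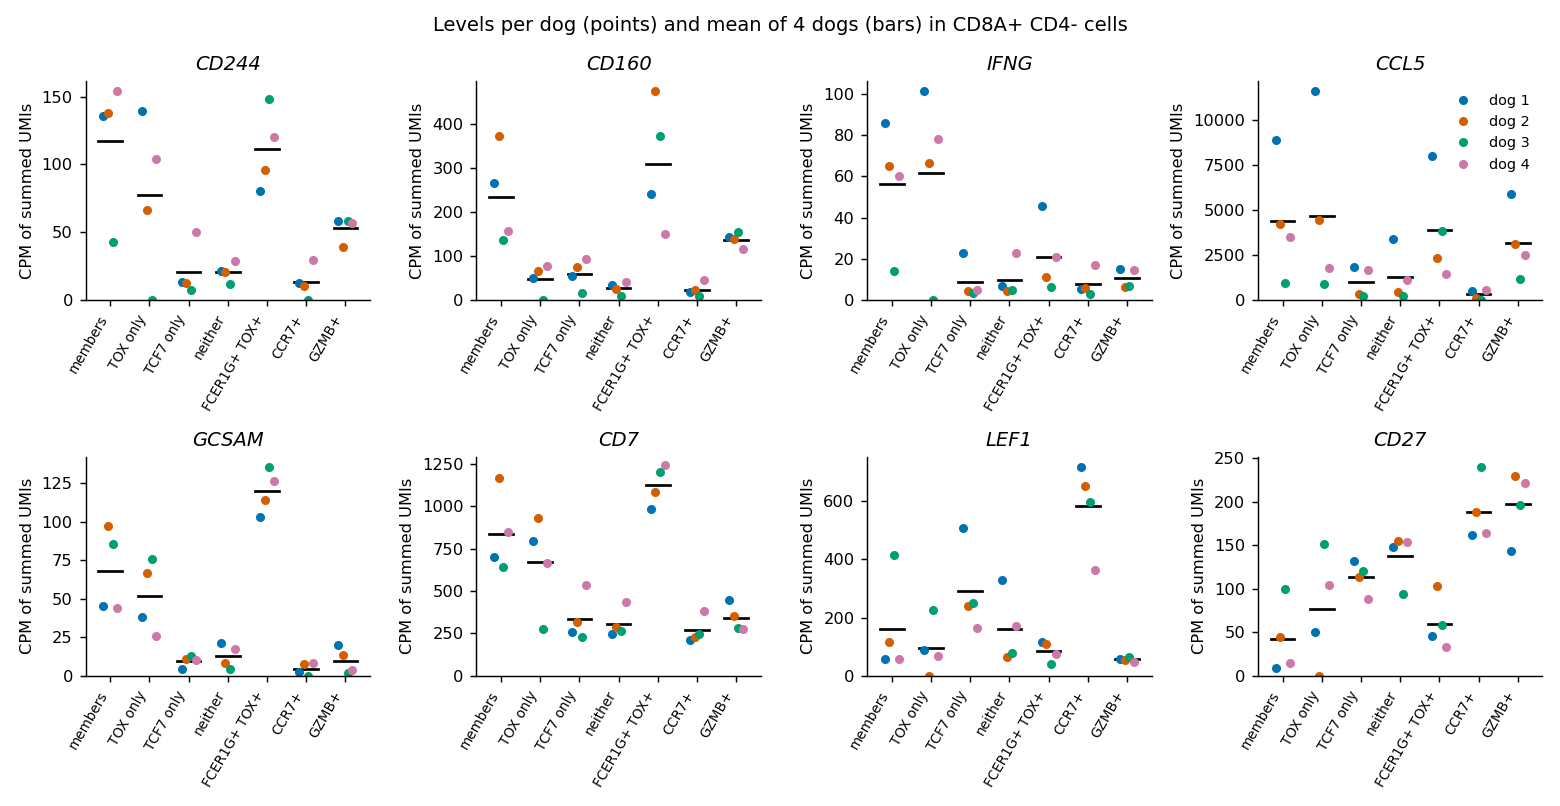
CPM of summed UMIs of 8 genes in each dog (points) with the mean of 4 dogs (bars), in the members and 6 other populations of CD8A+ CD4- cells; TOX only, TCF7 only and neither met the negative conditions of the gate. CD244, IFNG, CCL5, GCSAM and CD7 were high in members and TOX only cells of most dogs, and the members of dog 3 (green) had the lowest CD244, IFNG and CCL5 and the highest LEF1 and CD27 of the members of any dog.

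The FCER1G+ TOX+ population has TOX and FCER1G RNA by its own definition, and unlike the members it was not selected on TCF7, GZMK or CCR7. In that comparison, 59 of 3623 genes were called (1.63%), 27 higher (0.745%) and 32 lower (0.883%) in members, with a median log2 fold change near 0 over all genes (0.00048). CD244 (0.17 ± 0.24), CD160 (-0.33 ± 0.19), CD7, FCRL5 and CCL5 were not called, and a missed threshold does not show equal levels. Dog 1 had only 14 FCER1G+ TOX+ cells.

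Members had more CD5 and CD6 RNA. THEMIS, a thymic selection factor chosen here after its values were seen, was at 131, 126, 92.9 and 124 CPM in members and at 11.5, 7.35, 6.45 and 7.00 CPM in FCER1G+ TOX+ cells, which is 5 or fewer UMIs per dog in the latter, and no test is given for it. CD5 was at 376, 527, 371 and 415 against 91.6, 80.8, 110 and 33.6 CPM (2.73 ± 0.23, edgeR adjusted p = 2.22e-08), and CD6 was higher by 2.45 ± 0.24. No value overlapped in these 3 genes. Of 7 receptor complex genes CD5 and CD6 were higher, none was lower and 5 were not called, CD3D, CD3E, CD3G, LCK and CD2 (median 0.17).

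Among 10 NK receptor genes KLRD1, IL2RB, NCR3 and IL18R1 were lower, none was higher and 6 were not called (median -0.45). KLRD1, encoding CD94, was at 31.7, 69.0, 193 and 127 CPM in members and at 309, 717, 541 and 668 CPM in FCER1G+ TOX+ cells (-2.51 ± 0.22, edgeR adjusted p = 3.47e-08). IL2RB was lower, at -1.60 ± 0.13, and the Helios gene IKZF2, at -2.33 ± 0.27, with no overlap in any of these 3 genes. IFNG, IL7R and CCR9 were higher by 1.55 ± 0.36, 0.87 ± 0.19 and 0.81 ± 0.20, and CCL4 and GCSAM were lower, at -0.74 ± 0.19 and -0.96 ± 0.23. Each of these last 5 calls was lost in 3 to 7 of the alternatives that could be fitted.

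CCR7+ CD8 cells, which hold the naive and central memory cells, were the fourth comparator. Here 447 of 4268 genes were called (10.5%), 188 higher (4.4%) and 259 lower (6.07%). CCL5 was at 525, 111, 14.9 and 575 CPM in CCR7+ cells, below all members (4.00 ± 0.27, edgeR adjusted p = 2.78e-09). KLRD1, GCSAM, CD160, CD244, CCL4, KLRK1 and CD7 were called higher, and all 3 effector genes tested were higher (median 2.79). KLRD1, GCSAM, CD160 and CD244 had 14, 8, 40 and 19 UMIs in all CCR7+ cells. They could be tested only through their levels in members, so no range of folds is given. Of 9 naive and stem-like genes 7 were lower, none was higher and IL7R and S1PR1 were not called (median -1.83). LEF1 was lower, at -2.26 ± 0.27, with dog 3 included, whose members stood at 414 CPM against 596 CPM in its CCR7+ cells. CTLA4, with 24 UMIs in members, was called lower but could be tested only through its level in CCR7+ cells.

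Members were not uniform. CCL5 RNA was present in 90.5, 71.7, 31.3 and 80.2% of members of dogs 1 to 4 (68.4% ± 25.9), and in 13.2% ± 9.43 of CCR7+ cells, with median depths of 4975 and 4215 UMIs. With each cell thinned to 2000 UMIs the shares were 65.9% ± 29.4 and 9.74% ± 8.93. Of all members 146 were CCL5+ LEF1-, 34 were CCL5- LEF1+, 20 had both RNAs and 26 neither. Dog 3 was the exception, with 16 CCL5- LEF1+ and 9 CCL5+ LEF1- cells among its 32 members.

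The following split by CCL5 was made after the values had been seen and is given as levels pooled over dogs, with no test. The 166 CCL5+ members had 162 CPM of CD244, 275 of CD160, 76.3 of IFNG and 162 of CCR9. The 60 CCL5- members had 45.99, 49.5, 10.6 and 53.1 CPM of the same genes. LEF1 was at 34.8 CPM in CCL5+ and 361 CPM in CCL5- members, and CD27 at 2.25 and 117 CPM. Within dog 3 the 10 CCL5+ members had 140 CPM of CD244, against 141, 164 and 172 CPM in CCL5+ members of dogs 1, 2 and 4. Their CD160 was at 443 CPM, against 286, 463 and 179 CPM in the same order. The 22 CCL5- members of dog 3 had no UMI of either gene.

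Markers of other cell types were as follows. All 4 gamma delta T and NK markers with a row in the gene list (SOX13, NCAM1, KLRF1 and NCR1) and all 3 platelet and erythroid markers (PPBP, ITGA2B and ALAS2) had no UMI in members. Of the 4 myeloid markers with a row LYZ, CSF1R and S100A12 had no UMI in members, and S100A8, the most abundant, was at 439, 1189, 1272 and 733 CPM in members against 922, 1910, 1880 and 1902 CPM in the other CD8A+ CD4- cells (-0.99 ± 0.10). S100A8 was also lower than in cells lacking TOX or TCF7 (-1.30 ± 0.10). Of the 6 B cell markers MS4A1, PAX5 and BLNK had no UMI and CD79B had 3, while the row named CD79A was at 6969 to 9051 CPM in members and 9303 to 10519 CPM in the other cells (-0.43 ± 0.07). The part of free RNA and of these rows in the other results was not tested.

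Antigen receptors were read from the V(D)J libraries, which the gate did not use. A productive TRA and TRB were found in 173 of 226 members, 79.7% ± 7.97 per dog against 67.5% ± 2.86 of the other CD8A+ CD4- cells, higher in all 4 dogs (exact paired permutation p = 0.125, two-sided, n = 4; adjusted p = 0.417 over 20 comparisons of shares). With 4 dogs 0.125 is the smallest p this test can give. Median depth was 4975 UMIs in members and 3684 in the other cells, and this share was not compared at equal depth. For FCER1G+ TOX+ cells, with a median of 4771 UMIs, it was 82.5% ± 5.01. A second TRA was present in 8.11, 0, 15.4 and 2.74% of such members (9 of 173 cells), a mean of 6.56% ± 6.78 against 8.11% ± 3.57 in the other CD8A+ CD4- cells (exact paired permutation p = 0.875, n = 4). This difference was -5.10 points without dog 3 and 1.49 points without dog 4. FCER1G+ TOX+ cells had 19.4% ± 24.1, with 55.5% in dog 4 and at most 8.89% in the other dogs. The difference from members could not be told from the spread between dogs (exact paired permutation p = 0.625, n = 4).

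A clone was defined as cells of a dog with the same V gene, J gene and junction nucleotides in 1 TRA and 1 TRB, and it was called expanded with at least 2 cells of any kind. Of 154 members with 1 TRA and 1 TRB, 114 belonged to expanded clones, 70.4, 71.4, 33.3 and 88.7% in dogs 1 to 4. The other CD8A+ CD4- cells had 50.1, 54.5, 73.1 and 72.9%. Members were higher in dogs 1, 2 and 4 and much lower in dog 3, for a mean difference of 3.33 ± 28.8 percentage points (SD) (exact paired permutation p = 1, n = 4). The difference became 17.7 points without dog 3 and -2.31, -1.20 and -0.848 points without dogs 1, 2 and 4. Against CCR7+ cells (12.8% ± 14.6) the difference was 53.1 ± 19.0 points, in the same direction in all 4 dogs (exact paired permutation p = 0.125, the smallest possible, n = 4). Against cells lacking TOX or TCF7 (44.2% ± 19.0) it was 21.8 ± 35.1 points, with 3 of 4 dogs higher (exact paired permutation p = 0.375, n = 4), 38.4 points without dog 3 and 11.4 without dog 1. FCER1G+ TOX+ cells were at 70.8% ± 17.2, above the members in 3 of 4 dogs (difference -4.79 points, exact paired permutation p = 0.625, n = 4; 2.51 without dog 3 and -11.7 without dog 1).

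Expansion was also counted by CCL5. Of CCL5+ members 101 of 117 were in expanded clones, 76.0, 85.7, 57.1 and 94.7% in dogs 1 to 4. Of CCL5- members 13 of 37 were, 0, 14.3, 21.4 and 64.3%. CCL5+ members had the higher share within each dog, on as few as 2 CCL5- and 7 CCL5+ cells in a dog, and no test was made.

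**Figure D4:**
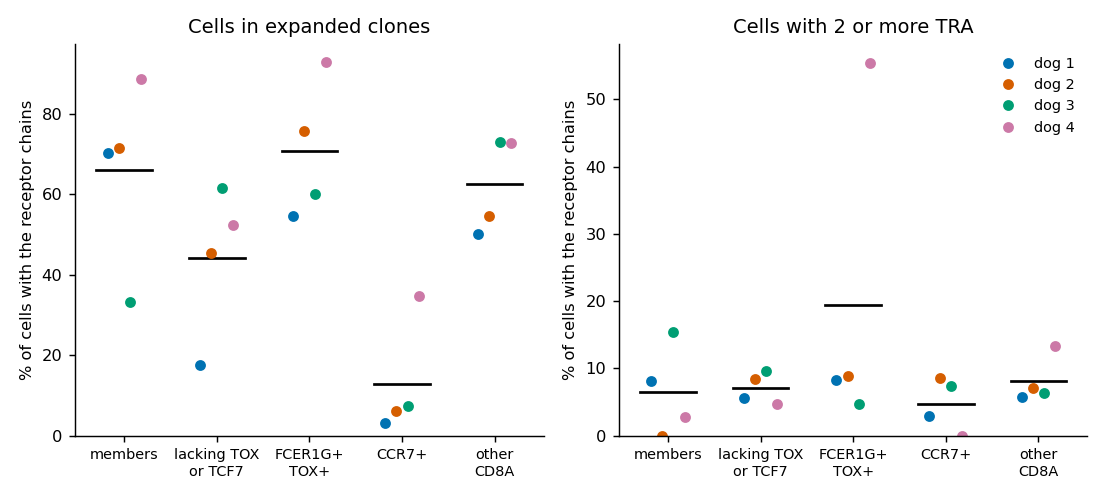
Percentage of cells in expanded clones (left, among cells with 1 TRA and 1 TRB) and with 2 or more TRA (right, among cells with TRA and TRB) in each dog (points) with the mean of 4 dogs (bars). Members of dogs 1, 2 and 4 were at 70.4% or above for expansion and those of dog 3 at 33.3%, whereas CCR7+ cells were at 34.6% or below.

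The 154 members fell into 87 clones, 47 of them expanded and 20 of them with 2 or more members (5, 3, 0 and 12 in dogs 1 to 4). These 20 clones held 173 cells in all. Of these, 87 were members and 35 met the negative conditions but lacked TOX or TCF7 RNA. Among the others, 37 were CD8A+ CD4- cells with GZMB but no FCER1G RNA, 4 were CD8A+ CD4- cells with FCER1G RNA and 2 had CD4 RNA. The remaining cells had CCR7 RNA, or RNA of neither CD4 nor CD8A. A GZMB+ cell, here and below a GZMB+ FCER1G- CD8A+ CD4- cell, occurred in 14 of the 20 clones. A cell lacking TOX or TCF7 occurred in 16 and an FCER1G+ cell in 1. Of the 47 expanded clones, 31 included a GZMB+ FCER1G- CD8A+ CD4- cell, 3 an FCER1G+ CD8A+ CD4- cell and 4 a CD4+ cell. The rest of the 87 clones were single members and could hold no such cell. Among all 6427 CD8A+ CD4- cells 2949 were GZMB+ and FCER1G-, and no expected count of clones was worked out. The largest clone that included a member had 125 cells and lay in dog 3, with 1 member.

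The junctions of the clones with the most members are shown because they carry the clonal part of the result. Capitals mark the first and last codon, which encode the conserved cysteine of the V segment and the phenylalanine or tryptophan of the J segment, and all are read 5' to 3' from the V(D)J files.
Dog 4, 12 members of 17 cells, TRAV9-11 TRAJ31: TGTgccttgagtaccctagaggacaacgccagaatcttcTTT
Dog 4, same clone, TRBV18 TRBJ1-2: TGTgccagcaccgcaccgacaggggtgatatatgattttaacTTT
Dog 2, 10 members of 22 cells, TRAV9-6 TRAJ30: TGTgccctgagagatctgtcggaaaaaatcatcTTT
Dog 2, same clone, TRBV24 TRBJ1-3: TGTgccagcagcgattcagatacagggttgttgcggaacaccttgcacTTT
Dog 2, 9 members of 19 cells, TRAV24 TRAJ52: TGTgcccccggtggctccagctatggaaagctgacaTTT
Dog 2, same clone, TRBV7 TRBJ1-1: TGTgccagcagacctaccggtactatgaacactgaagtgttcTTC
Dog 4, 7 members of 17 cells, TRAV43-4 TRAJ34: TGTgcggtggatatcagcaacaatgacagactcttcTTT
Dog 4, same clone, TRBV18 TRBJ2-1: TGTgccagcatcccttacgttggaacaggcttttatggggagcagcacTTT

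The clone of dog 4 with 12 members included 1 GZMB+ cell and 4 cells lacking TOX or TCF7. Both large clones of dog 2 included 7 GZMB+ cells each. The last clone printed was the one among the 20 with FCER1G+ cells, 4 of its 17. The 8 junctions were 36 to 51 bases long, and no TRA junction was found in members of more than 1 dog.

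**Figure D5:**
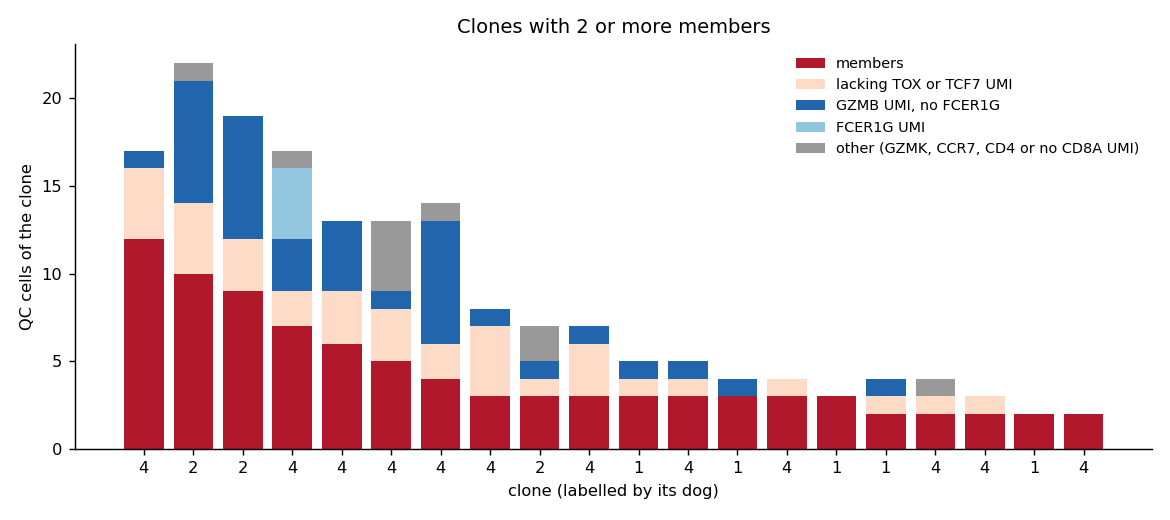
QC cells of each of the 20 clones with 2 or more members, stacked by the RNA of the cells, with the dog under each bar. The largest bar has 22 cells (dog 2), GZMB+ FCER1G- cells were in 14 of the bars, and no clone of dog 3 is present.

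Gene segment use gave few differences beyond the spread between dogs. Of 44 TRAV and TRBV genes tested against the other CD8A+ CD4- cells, 1 was called (2.27%). This was TRBV4-2, carried by 6 members and by 2.48% ± 1.80 against 0.397% ± 0.166 of cells with a TRB (log2 fold change 2.58 ± 0.74, edgeR adjusted p = 0.0435). It was higher in 3 of 4 dogs, and 1 clone of dog 4 held 3 of the 6 members. The call was lost when each clone was counted once, without the dog as block, and without dog 2, 3 or 4. TRAV24 was carried by 7.89, 45.9, 19.2 and 3.90% of members with a TRA and by 10.7, 13.5, 3.16 and 13.6% of the other cells (0.63 ± 1.04, edgeR adjusted p = 0.848), with dog 2 highest among the members, where 17 of 37 cells carried it. TRAV9-6 was the most frequent, at 21.1% ± 9.87 against 11.1% ± 6.13 (edgeR, adjusted p = 0.848). None of the 178 members with a TRA carried TRAV21, TRAV28 or TRAV29, which allows a share of up to 1.69% each by counting error alone, and members of a clone are not independent. The other cells had means of 2.25, 2.04 and 2.19%, and no difference was called (edgeR, adjusted p = 0.339 for each).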

How the data were processed

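Raw UMI counts per gene and cell were deposited by the authors for 4 libraries, with a table of TRA and TRB rearrangements per cell. The submitters' processing notes name Cell Ranger 5.0.1 and the methods the CanFam 3.1 genome, and no source read here names the V and J gene reference. The gene list of dog 1 has 27980 lines for a matrix of 20257 rows, so the names of dog 2 were used for all dogs (correlation of log row totals 0.991 between dogs 1 and 2). Cells were kept with 500 to 20000 UMIs and up to 10% mitochondrial UMIs. No doublet caller was run, and leaving out cells with more than 1 TRB was an alternative.

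UMIs were summed per dog and population and tested with edgeR 4.0.16 in R 4.3.3 (quasi-likelihood, TMM, filterByExpr with a minimum count of 10, dog as block), which pairs populations of the same animal. The genes of the gate were not tested. DESeq2 1.42.0, other normalization, no filter, no block, leaving out each dog, a depth window of 3000 to 8000 UMIs, removal of TCR genes and 2 UMIs of TOX or TCF7 were the alternatives. Simulated counts for members against other CD8A+ CD4- cells (7951 genes) gave recovery of 60.6% of genes changed 2-fold and 90.8% of those changed 4-fold with 1 false call. Shares were compared by exact paired permutation (SciPy 1.17.1). Named genes were those of 16 lists (160 genes, 134 with a row) and the 10 largest calls in each direction with the same sign in all dogs and a mean of at least 20 CPM (first 2 comparisons), and exceptions are stated. Some genes of these lists enter the counts but are not reported here by name. The members and lists were chosen with earlier results of these data known. The dogs are separate animals. The p-values of the main tests weigh the difference between populations within a dog against its variation from dog to dog. In edgeR that variation is estimated with information shared over genes.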

Additional observations from a re-analysis of the deposited data

Results flagged for a closer look

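Of 38 quantities looked at over the 4 dogs, 3 had a sample farther from the others than Dixon's 95% critical value for 4 samples allows, and chance flags about 1 in 20 groups. All 3 were in the members of dog 3. CD244 was at 42.9 CPM there, below the other dogs, LEF1 at 414 CPM was above them, and TCF7, a gene of the gate, at 550 CPM was below them.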

How the results depend on the processing

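In the fits that do not pair the populations of a dog (no replicate block), 219, 64 and 26 genes were called against other CD8A+ CD4- cells, cells lacking TOX or TCF7 and FCER1G+ TOX+ cells, and 0 V genes, where the fits with the block gave 417, 137, 59 and 1. DESeq2 gave 228, 57 and 18 in the same order and 215 against CCR7+ cells, where edgeR gave 447. Without the filter on low counts 236 genes were called against cells lacking TOX or TCF7 and 124 against FCER1G+ TOX+ cells, and the latter count was 37 with 3000 to 8000 UMIs per cell and 38 without cells of more than 1 TRB. Counting each clone once left 0 V genes (4 at an unadjusted p under 0.05). Leaving out 1 dog gave 179 to 445, 69 to 181, 22 to 77 and 191 to 482 genes in the 4 comparisons, with the lowest count without dog 4, 2, 4 and 2, and 0 to 1 V genes. It moved the difference from other CD8A+ CD4- cells in cells with 2 or more TRA between -5.10 and 1.49 points and that in expanded clones between -2.31 and 17.7 points, and the latter was -0.0670 points by TRB alone. Causes were not tested. Of 1848 refits of 164 named gene results none reversed direction and 208 lost their call. The 226 members, 32 of them in dog 3, limit the precision for genes of few UMIs.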
